A study of Rattus norvegicus with 6 samples.

Results

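The genes described here are the opioid peptide precursors Penk, Pdyn, Pomc and Pnoc and the opioid receptors Oprm1, Oprd1, Oprk1 and Oprl1. They were chosen by gene family, with the LSD against Saline values of the same arrays already known, so every difference between the groups is given as a description and supports nothing by itself. All probe sets annotated to exactly 1 of these symbols were taken, which gave 15 probe sets of 8 genes, out of 8740 tested probe sets that carry 4736 single gene symbols. A probe set is a group of short probes designed for a transcript or for several related ones, and its value is a log2 signal obtained by robust multi-array averaging (RMA). None of the 8 genes lacked a probe set, and no filter on dim signal was applied, so all 15 entered the test.

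Sprague-Dawley rats, all male and of 250 to 275 g, were killed 90 min after an intraperitoneal injection and the medial prefrontal cortex (mPFC) was taken. One group received (+)-LSD tartrate, a hallucinogenic agonist at serotonin receptors, at 1.0 mg/kg, and the other received saline. Each group was read on 3 Affymetrix rat genome arrays. The labels give 4 rats per group with their tissue pooled, whereas the paper describes each of the 3 arrays as an independent pool of 2 rats, which makes 6 rats per group. The conflict could not be resolved, so the spread between arrays may be technical and p-values measure that spread only. A second line in the sample descriptions names the opposite treatment from the titles and treatment labels. Groups here follow the titles and treatment labels. If the second line were right, all signs given below would be reversed.

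Opioid peptides are cut from large precursor proteins and act on G protein-coupled receptors of the inhibitory Gi/o class, which lower cyclic AMP, open inwardly rectifying potassium channels and restrain calcium channels. Enkephalins from Penk act mainly on the delta and mu receptors (Oprd1 and Oprm1), dynorphins from Pdyn on the kappa receptor (Oprk1), beta-endorphin from Pomc on the mu and delta receptors, and nociceptin from Pnoc on its own receptor (Oprl1). In rodent cortex Penk, Pdyn and Pnoc are made largely by interneurons, whereas Pomc is made in the pituitary and in the hypothalamus.

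Saline 1 stood apart from the other arrays, with 78 probe sets at a distance of over 1 log2 unit from the average of the remaining 5, against 21 on LSD 1 and 2 to 12 on the remaining arrays. Correlations between arrays over all tested probe sets lay between 0.984 and 0.996, and no pair was identical. For beta-actin the 3′ signal minus the 5′ signal, which grows as RNA is broken down, was 0.687 ± 0.0412 log2 units on LSD arrays and 0.787 ± 0.0439 on Saline arrays (SD, n = 3, two-sided exact permutation p = 0.1, the smallest that 20 assignments allow). For Gapdh it was 0.492 ± 0.0906 on LSD arrays and 0.523 ± 0.0433 on Saline arrays (SD, n = 3, exact permutation p = 0.7). The part of RNA integrity in the values below was not tested.

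Promoters were available in a RefSeq table of the GRCr8 assembly for 4 of the 8 genes, as 5 entries. The sequence TATAAA, the core of a TATA box, was searched on both strands of the 250 bases before each start and was found once in Pdyn and once in Pomc, beginning 13 and 32 bases before the start. It was found in neither the Oprd1 entry nor the Oprm1 entries, and in 12.9% of all promoters of the same length. The cAMP response element TGACGTCA and the AP-1 site TGANTCA, the letters through which CREB and Fos-Jun factors bind DNA, were not found in any of the 5 entries. They occurred in 1.59% and 6.34% of all promoters. The Oprd1 entry held 79.6% G and C bases, the Pomc entry 66.4%, the Pdyn entry 59.2% and the Oprm1 entries 58.4% and 36.4%, with a median of 51.2% over all promoters. A match is a description of these letters only. The 100 bases before the start of both TATA-bearing precursor genes, chr3:137366504-137366603 (minus strand) and chr6:32659253-32659352 (plus strand), show where the letters stand, with TATAAA in capitals.
Pdyn: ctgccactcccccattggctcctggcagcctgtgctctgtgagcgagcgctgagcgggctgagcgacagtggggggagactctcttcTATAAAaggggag
Pomc: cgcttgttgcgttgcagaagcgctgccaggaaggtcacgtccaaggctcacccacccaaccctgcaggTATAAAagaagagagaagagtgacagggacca

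Penk, the enkephalin precursor, was lower on every LSD array than on every Saline array, and it was the only opioid probe set whose groups were fully separated. Its single probe set, S49491_s_at, read 6.09, 6.03 and 5.97 log2 units on LSD 1, 2 and 3, against 6.35, 6.55 and 6.59 on Saline 1, 2 and 3. The highest LSD array thus lay below the lowest Saline array, which was Saline 1. The group means were 6.03 ± 0.059 on LSD arrays and 6.50 ± 0.13 on Saline arrays (SD, n = 3), a difference of -0.46 ± 0.094 log2 units (SE, 95% interval -0.68 to -0.25). On the linear scale this is a level of 0.725 times that of Saline. RMA compresses differences of dim probe sets, and the Penk probe set was brighter than 66.2% of all probe sets. It ranked 29th by p among 8740 probe sets and did not pass after Benjamini-Hochberg adjustment in limma (adjusted p = 0.341). The suffix _s_at marks a probe set that can match several transcripts, and no other probe set reads Penk, so the value has no check within the array. In a dissected tissue, fewer cells that make Penk and less Penk RNA per cell cannot be told apart.

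At an adjusted p below 0.05 limma called 0 of the 15 opioid probe sets, where 6 of 8740 (0.0686%) were called, 1 higher and 5 lower after LSD. An unadjusted p below 0.05 was found for 1, which was Penk, against 3.92% of all probe sets. With 1 probe set per gene, that of highest mean, 0 of 8 genes passed, against 0.0211% of all genes. An exact rank test called 0 and cannot go below p = 0.1 with 3 against 3. With limma's array weights, which give less weight to arrays that fit poorly, Penk was called (-0.54, adjusted p = 0.0127) along with 42 probe sets in all (0.481%), while its adjusted p ranged from 0.0919 to 0.999 over the other alternatives. Groups did not overlap with LSD lower for 1 of 15 probe sets (3.79% of all) and with LSD higher for 0 of 15 (6.58% of all). The first of these counts was 7 without LSD 3 (8.39% of all), 4 without Saline 1 (14.8%) and 3 without Saline 2 (7.37%).

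**Figure D1:**
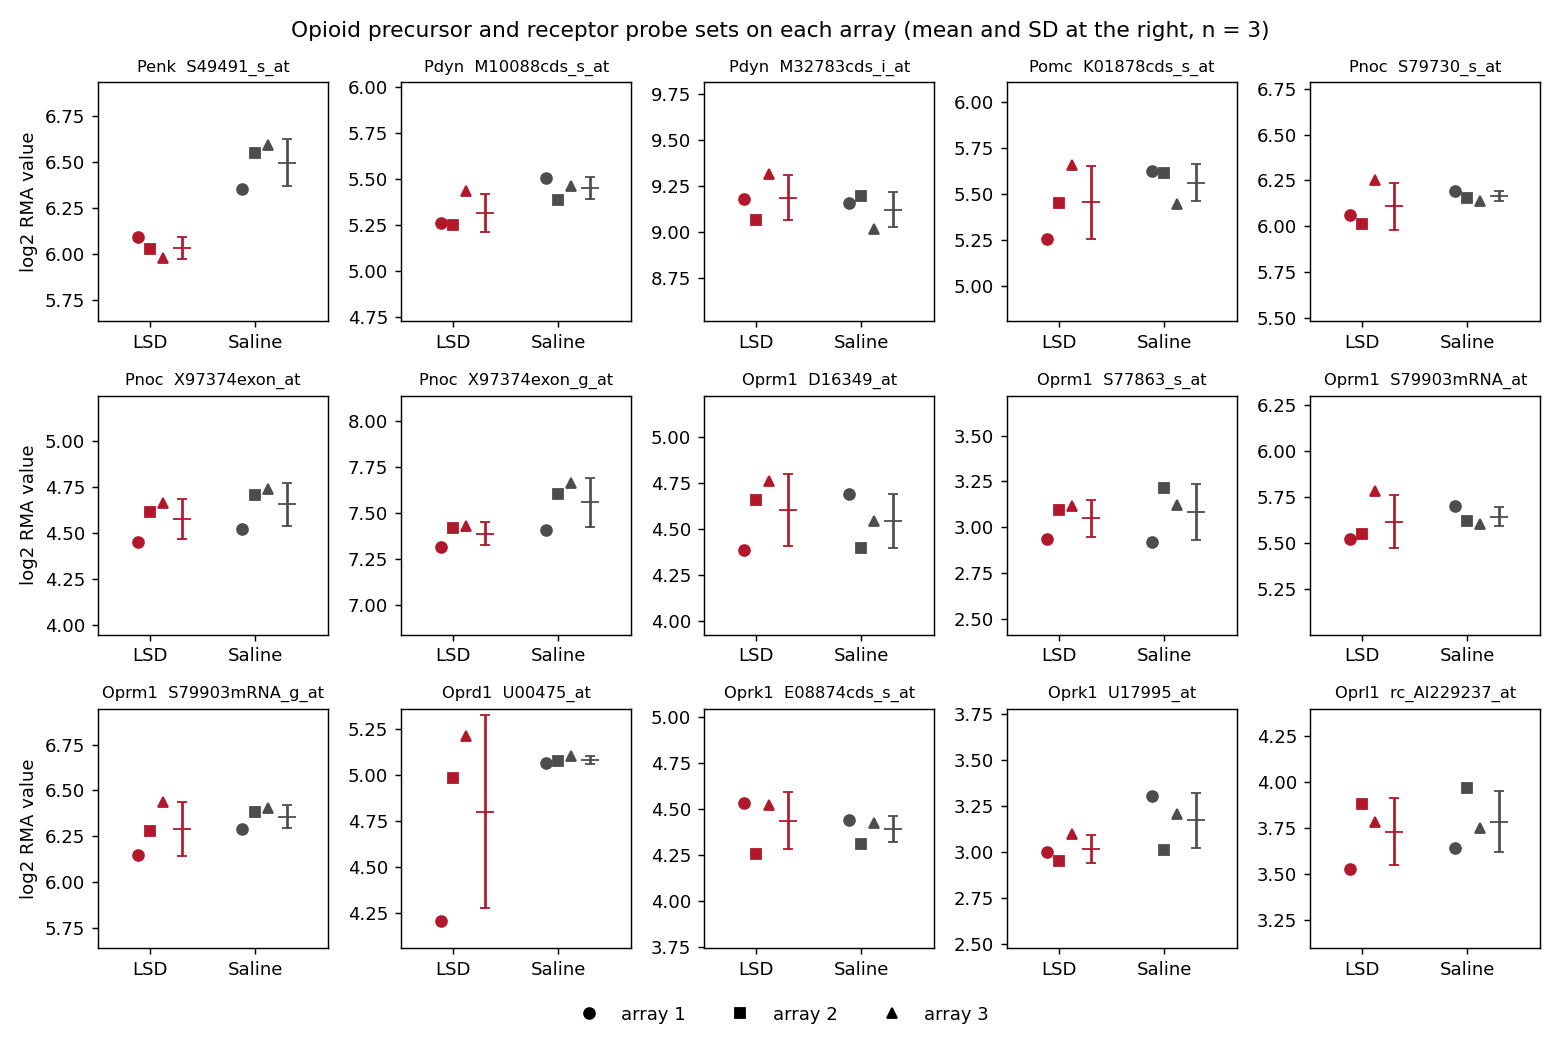
Log2 RMA values (vertical axis, the same span of log2 units in each panel) of the 15 opioid probe sets, with 1 point per array, LSD in red at the left and Saline in grey at the right, with the mean and SD drawn as bars (n = 3). Penk is lower on all 3 LSD arrays, and in Oprd1 LSD 1 (4.21) lies far below the other 5 arrays.

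Pdyn, the dynorphin precursor, is read by 2 probe sets that pointed in different directions. M10088cds_s_at read 5.26, 5.25 and 5.44 log2 units on LSD arrays and 5.50, 5.39 and 5.46 on Saline arrays. LSD 3 lay above Saline 2, so the groups overlapped, and the difference was -0.14 ± 0.090 (SE). M32783cds_i_at read 9.18, 9.07 and 9.32 on LSD arrays and 9.16, 9.20 and 9.02 on Saline arrays, a difference of 0.07 ± 0.098. Both the highest and the third highest of its 6 values came from LSD arrays. The suffix _i_at marks a probe set with fewer probes than the design aimed for, and this one was brighter than 95.8% of all probe sets, against 48.9% for the other. Neither was called, and the 95% intervals of both differences spanned 0.

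Pnoc, which encodes the nociceptin precursor, had 3 probe sets, all with a lower mean on LSD arrays and all overlapping. The brightest, X97374exon_g_at, read 7.32, 7.42 and 7.43 log2 units on LSD arrays and 7.41, 7.60 and 7.66 on Saline arrays. Only Saline 1 fell within the LSD range, and the difference was -0.17 ± 0.096 (SE, 95% interval -0.39 to 0.05), the second largest among the precursors. X97374exon_at, which shares its source sequence with it and is therefore not independent, differed by -0.08 ± 0.099. S79730_s_at differed by -0.05 ± 0.092, with 3 close Saline values (6.14 to 6.19) inside the wider LSD range (6.01 to 6.25). Without 1 array the brightest probe set differed by -0.24 (without Saline 1) to -0.12 (without Saline 3), S79730_s_at by -0.13 to -0.0062 and X97374exon_at by -0.15 to -0.02.

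Pomc, which encodes the common precursor of beta-endorphin, ACTH and the melanocortins, is read by K01878cds_s_at. Its values were 5.26, 5.45 and 5.66 log2 units on LSD arrays and 5.62, 5.61 and 5.45 on Saline arrays. The lowest and the highest of the 6 values both came from LSD arrays, and the difference was -0.11 ± 0.12 (SE). Without LSD 1 it was -0.01. For genes of the hypothalamus and pituitary, the usual sources of Pomc, 14 of 15 listed were measured. They averaged 5.454 to 5.652 log2 units on LSD arrays and 5.510 to 5.644 on Saline arrays. Of the 14, 6 were higher, 8 lower and 0 called, against 0.0211% of all genes called in limma. An unadjusted p below 0.05 was found for 0 of them, against 3.63% of all genes. Without overlap 2 of the 14 were lower and 0 higher, against 158 and 330 of 4736 over all genes. LSD 3 was the highest LSD array for both Pomc and this list, and LSD 1 the lowest. The striatum and astrocyte lists described below had the same order. Among Saline arrays Pomc was lowest on Saline 3, and the hypothalamus and pituitary list on Saline 2. The members of that list with the lowest p were Fshb (-0.17), Cga (0.27) and Trh (-0.27), which encode a pituitary hormone subunit, the alpha subunit shared by several pituitary hormones and the precursor of thyrotropin-releasing hormone.

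The mu receptor gene Oprm1, whose product is the main target of morphine, had 4 probe sets, and none separated the groups. The brightest, S79903mRNA_g_at, read 6.15, 6.28 and 6.44 log2 units on LSD arrays and 6.29, 6.38 and 6.41 on Saline arrays, a difference of -0.07 ± 0.099 (SE). S79903mRNA_at, from the same source sequence, differed by -0.03 ± 0.098 and the dim S77863_s_at by -0.03 ± 0.11. D16349_at went the other way, by 0.06 ± 0.12. All 4 had LSD 1 as the lowest and LSD 3 as the highest LSD array, and in 3 of them LSD 3 also lay above every Saline array.

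Oprd1, the delta receptor gene, showed the widest spread of the 15 probe sets. U00475_at read 4.21, 4.98 and 5.21 log2 units on LSD arrays and 5.07, 5.07 and 5.10 on Saline arrays. The Saline values agreed within 0.037 log2 units and the LSD values spanned 1.00. The difference of -0.28 ± 0.23 (SE, 95% interval -0.80 to 0.24) rested on LSD 1, and without that array it was 0.02.

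The kappa receptor gene Oprk1 and the nociceptin receptor gene Oprl1 were read by dim probe sets and overlapped throughout. For Oprk1, E08874cds_s_at differed by 0.04 ± 0.10 log2 units (SE), with values from 4.26 to 4.53 on LSD arrays and 4.31 to 4.44 on Saline arrays. U17995_at differed by -0.16 ± 0.10, with 2.95 to 3.10 on LSD arrays and 3.01 to 3.30 on Saline arrays, and was dimmer than all but 6.74% of probe sets. Oprl1 read 3.53, 3.88 and 3.78 on LSD arrays and 3.64, 3.96 and 3.75 on Saline arrays, a difference of -0.05 ± 0.12. In that probe set the first array of each group was the lowest and the second the highest.

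**Figure D2:**
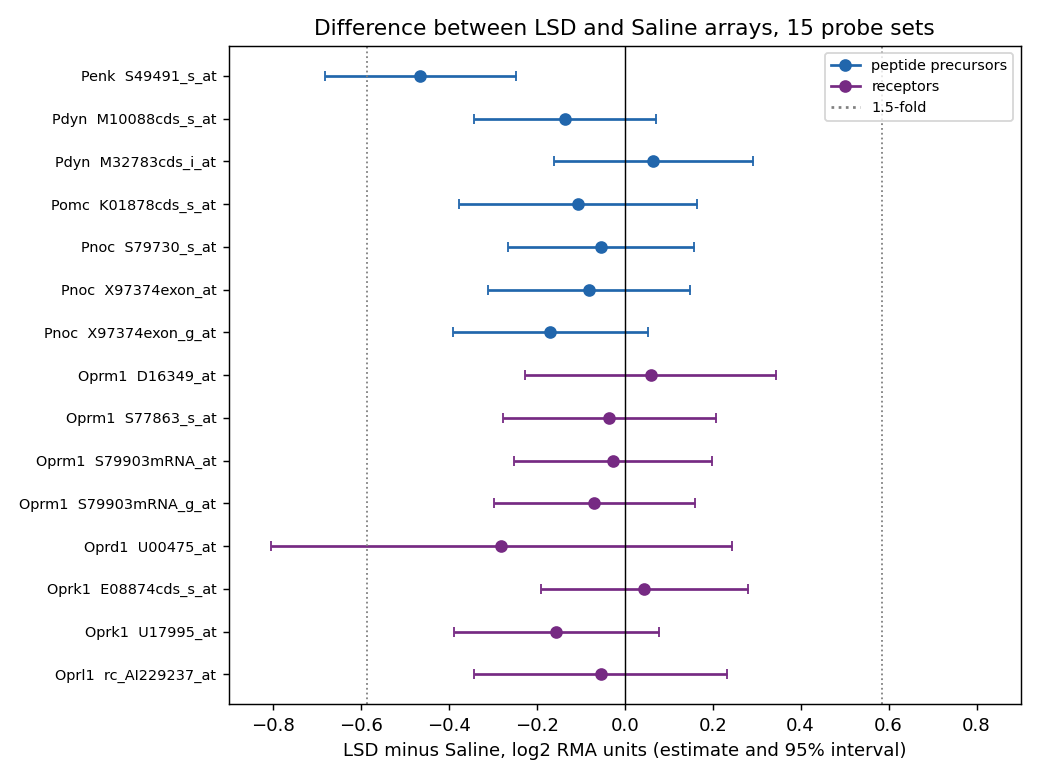
Difference LSD minus Saline in log2 RMA units (horizontal axis) for the 15 probe sets, with the estimate and its 95% interval from limma (3 arrays per group), precursors in blue and receptors in purple. The interval of Penk lies below 0, those of the other 14 span 0, and the dotted lines mark a 1.5-fold difference either way.

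The precision of the arrays bounds what could have been missed on this scale. The 95% intervals of all 15 probe sets excluded a 1.5-fold rise, and those of 13 excluded a 1.5-fold fall, the exceptions being Penk and Oprd1. All 15 excluded a 2-fold change in either direction. Of the 15, 8 were dimmer than the median probe set, where RMA compresses differences. The median SD between arrays of a group was 0.113 log2 units for the opioid probe sets and 0.130 for all probe sets. LSD arrays had the larger SD in 10 of 15 opioid probe sets, against 46.4% of all.

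Estimates lay below 0 for 12 of 15 opioid probe sets, with a median of -0.07 log2 units, against 48.6% of all probe sets and a median of 0.0045. Probe sets of the same gene and the same source sequence count more than once here, and the median without Penk was -0.06. Without LSD 1, 8 of 15 estimates lay below 0, with a median of -0.0033, while without any other single array the number was 11 to 13. LSD 1 was the lowest of all 6 arrays in 8 of 15 opioid probe sets (24.0% of all probe sets) and LSD 3 the highest of all 6 in 7 of 15 (18.3% of all). Within the LSD group LSD 3 was the highest array in 12 of 15 (38.7% of all). Penk did not follow that order, since LSD 3 had its lowest value and LSD 1 its highest value of that group.

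**Figure D3:**
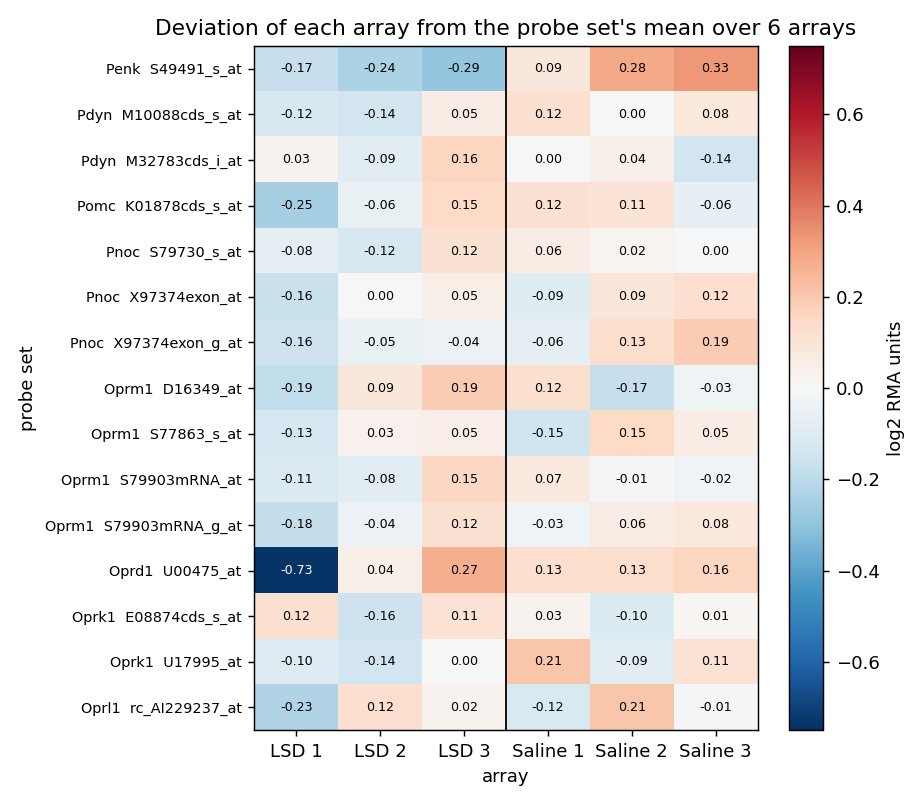
Deviation of each array (columns, LSD at the left, Saline at the right) from the mean over 6 arrays of each opioid probe set (rows), in log2 RMA units, blue for below and red for above. LSD 1 is below the mean in 13 of the rows and LSD 3 above it in 13, and Penk is below it on all 3 LSD arrays.

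The striatum, which lies close to the mPFC, holds many Penk neurons, so its marker genes were examined beside Penk. Of 14 striatal markers measured out of 23 listed, a list without Penk and Pdyn, 12 were lower and 2 higher on LSD arrays. Their median was -0.09 log2 units, against 0.0056 over all genes. In limma 0 of the 14 were called, against 0.0211% of all genes. An unadjusted p below 0.05 was found for 2 of the 14, against 172 of 4736 genes (3.63%). Their mean level was 6.145 to 6.239 on LSD arrays and 6.276 to 6.319 on Saline arrays, so it separated the groups. Its nearest values were 6.239 on LSD 3 and 6.276 on Saline 1, against 6.09 on LSD 1 and 6.35 on Saline 1 for Penk. The means of the choroid plexus, G protein and effector lists described below also separated the groups. Arpp21, a cyclic AMP-regulated phosphoprotein gene, differed by -0.36 ± 0.097 (SE), Tac1, the substance P precursor, by -0.32 ± 0.13 and Rgs9, a regulator of G protein signalling, by -0.18 ± 0.087, with no overlap for any of them, although the nearest values of the groups lay close together for Tac1 and Rgs9. Adora2a and Drd2, which mark the striatal neurons that make Penk and were named after their values were seen, differed by -0.11 ± 0.083 and -0.10 ± 0.12, and only Adora2a did not overlap. Of the 14 markers, 4 were lower and 0 higher without overlap, against 158 and 330 of 4736 over all genes. Within the LSD group the orders differed, since the list was lowest on LSD 1 (6.1445) and highest on LSD 3 (6.239), the reverse of Penk, while in the Saline group Saline 1 was lowest and Saline 3 highest for both. Without LSD 1 the median of the list was -0.0344 with 10 of 14 lower, and Penk differed by -0.50. The part of striatal tissue in the Penk value was not tested.

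**Figure D4:**
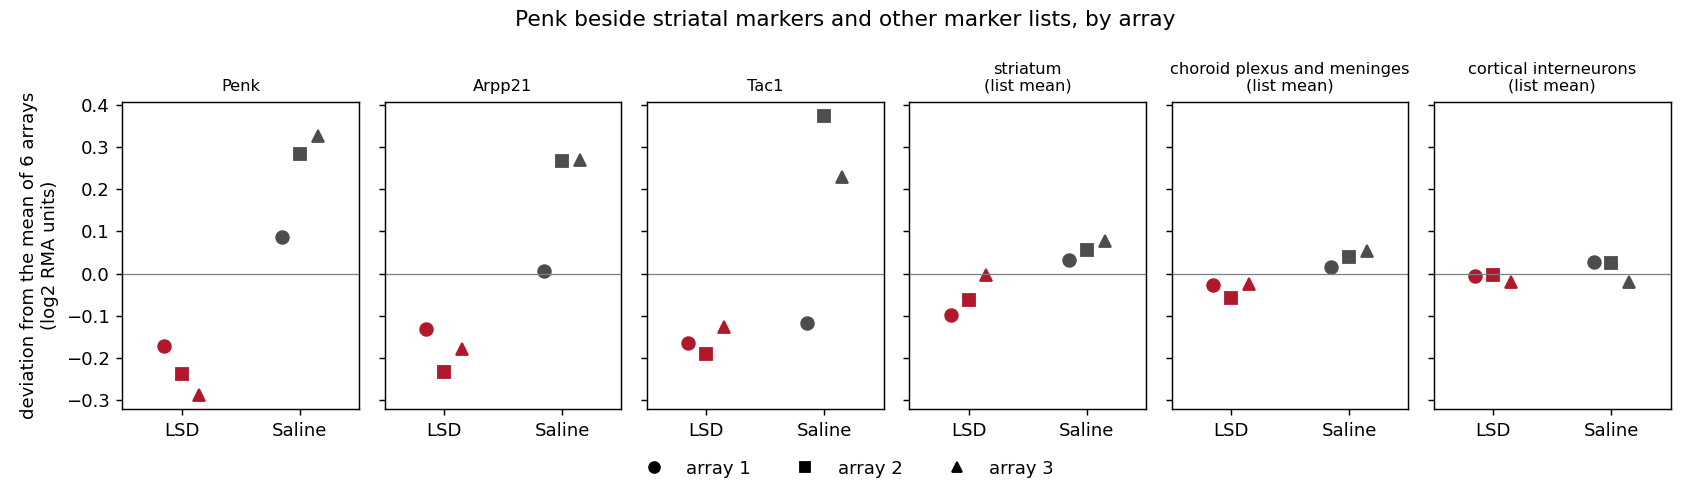
Deviation from the mean over 6 arrays in log2 RMA units (vertical axis) for Penk, Arpp21 and Tac1 and for the mean of 3 marker lists, with 1 point per array, LSD in red at the left and Saline in grey at the right. The groups are separated for the genes and for the striatum and choroid plexus lists, and overlap for cortical interneurons. Arpp21 and Tac1 had the lowest p of the striatal markers, of which 4 of 14 separated the groups.

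Choroid plexus and meninges genes also separated the groups, at 6.663 to 6.697 log2 units on LSD arrays and 6.737 to 6.774 on Saline arrays over 11 of 14 listed genes. Of these, 4 were higher and 7 lower with 0 called, against 0.0211% of all genes called in limma. An unadjusted p below 0.05 was found for 3, against 3.63% of all genes. These 3 were Ttr, the thyroid hormone carrier (-0.49), Enpp2, a secreted lysophospholipase (-0.41), and Igf2 (-0.24). Without overlap 2 of the 11 were lower and 0 higher, against 158 and 330 of 4736 over all genes. Cortical interneuron genes, which mark the usual cortical source of the precursors, overlapped, at 6.729 to 6.745 on LSD arrays and 6.730 to 6.776 on Saline arrays, with 5 of 16 higher, 11 lower, 0 called and 0 at an unadjusted p below 0.05. The lowest p among them belonged to Pvalb (0.19), the GABA-synthesising enzyme gene Gad1 (-0.20) and Reln (0.16). Without overlap 0 of the 16 were lower and 1 was higher, against the same 158 and 330 of 4736 genes. The interneuron list mean was 6.776 on Saline 1, 6.774 on Saline 2 and 6.730 on Saline 3. Only Saline 3 fell within the LSD range. The part of either list in the Penk value was not tested.

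The remaining marker lists had 0 genes called each in limma, against 0.0211% of all genes. An unadjusted p below 0.05 was found for 4 of 9 astrocyte genes, 1 of 9 excitatory neuron genes and 1 of 9 microglia genes. It was found for 0 oligodendrocyte and endothelial genes, against 3.63% of all genes. Without overlap 2 astrocyte genes were lower and 1 higher, against 158 and 330 of 4736 over all genes. In the same way 1 excitatory neuron gene and 1 microglia gene were higher, and 0 oligodendrocyte and endothelial genes separated the groups. Excitatory neuron genes overlapped between the groups (5.746 to 5.827 on LSD arrays, 5.771 to 5.873 on Saline arrays, 9 of 15 measured, 5 higher), as did astrocyte genes (8.962 to 9.029 on LSD arrays, 9.016 to 9.068 on Saline arrays, 9 of 12, 4 higher). Oligodendrocyte genes (8.103 to 8.131 on LSD arrays, 8.019 to 8.148 on Saline arrays, 8 of 13, 4 higher), microglia genes (5.528 to 5.670 on LSD arrays, 5.525 to 5.562 on Saline arrays, 9 of 12, 6 higher) and endothelial genes (5.681 to 5.888 on LSD arrays, 5.697 to 6.024 on Saline arrays, 6 of 12, 2 higher) overlapped likewise. The lowest p among the excitatory genes belonged to Nptx1, with a difference of 0.27 log2 units, Camk2a (-0.19) and Neurod1 (-0.19). The table carries no detection calls, so whether a marker was present could not be read from it. In the glial and vascular lists the lowest p belonged to the astrocyte genes Cst3 (-0.27), Aqp4 (0.41) and S100b (-0.24), to the oligodendrocyte genes Ugt8 (0.24), Mag (0.12) and Sox10 (-0.10), to the microglia genes Cd74 (0.26), Ptprc (-0.22) and Fcgr2b (0.15), and to the endothelial genes Flt1 (0.13), Vwf (-0.12) and Slc2a1 (-0.10).

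The 5 genes whose pattern over the 6 arrays lay closest to Penk were found by the root mean square difference of the values after each probe set was centred on its mean. They were Arpp21 (0.0628 log2 units), Scd2, which encodes a fatty acid desaturase (0.086), Hspa4, an Hsp70 family chaperone gene (0.0863), Sparc, a matrix protein gene (0.0953), and Kctd13 (0.0993), against a root mean square of 0.246 for the centred Penk values. All 5 had a lower mean on LSD arrays, with differences of -0.55 to -0.31 log2 units, a direction that likeness to Penk fixes. Arpp21 read 6.89, 6.79 and 6.84 on LSD arrays and 7.02, 7.29 and 7.29 on Saline arrays. Saline 1 was the lowest Saline array for both genes, and a choice by likeness to Penk favours such a shared order.

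Genes that make, break down or transmit opioid peptides showed no called change. Of 102 such genes and comparison precursors, 80 were measured, 38 were higher and 42 lower, and the median was -0.01 log2 units. In limma 0 of 80 passed, against only 0.0211% of all genes. An unadjusted p below 0.05 was found for 2 of 80, against 3.63% of all genes. Without overlap 6 of 80 were lower and 2 higher, against 158 and 330 of 4736 over all genes. Precursor processing genes, which cut and modify the propeptides, had 7 of 11 higher (median 0.02), with the secretory chaperone gene Scg5 at 0.16, the convertase gene Pcsk5 at -0.21 and the protease gene Ctsl at -0.09. Peptidase genes that break enkephalins and related peptides down had 4 of 11 higher (median -0.04), with Npepps at -0.18, Thop1 at 0.11 and Prep at 0.12.

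On the receptor side, G protein subunit genes had the median furthest from 0 among the 7 related lists, with 1 of 9 higher, 8 lower and a median of -0.08 log2 units. Its mean level was 7.791 to 7.831 on LSD arrays and 7.868 to 7.898 on Saline arrays, without overlap. Gnai1, an inhibitory alpha subunit gene and the 1 member that was higher, read 5.89, 6.06 and 6.09 on LSD arrays and 5.89, 5.75 and 5.76 on Saline arrays, a difference of 0.22 ± 0.091 (SE, limma adjusted p = 0.971). Gnb2, a beta subunit gene, differed by -0.19 without overlap, and Gnao1, the alpha subunit gene of Go, by -0.19 with overlap. Of the 9 subunit genes, 3 were lower and 0 higher without overlap, against 158 and 330 of 4736 over all genes. Effector genes comprise potassium and calcium channels, adenylyl cyclases and the catalytic subunits of the cyclic AMP-dependent protein kinase downstream of the cyclases. Of these, 8 of 14 were higher (median 0.03), with Kcnj6 at 0.25, Prkacb at 0.15 and Kcnj3 at 0.15. The list mean was 6.158 to 6.213 on LSD arrays and 6.134 to 6.152 on Saline arrays. It did not overlap, but its nearest values were close, 6.1581 on LSD 2 and 6.1522 on Saline 3. Of the 14 genes, 0 separated the groups and 0 had an unadjusted p below 0.05. Desensitisation genes had 6 of 12 higher (median 0.01), with Rgs9 as above, Arrb1 at 0.29 and Arrb2 at -0.15, both encoding arrestins that uncouple receptors. Of these 12 genes, 2 were lower and 0 higher without overlap, against the same 158 and 330 of 4736 genes.

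Transcription factor genes known to act on Penk and Pdyn, mostly of the AP-1 and CREB families, had 7 of 10 higher (median 0.07 log2 units). In limma 0 of them were called, against 0.0211% of all genes. Junb differed by 0.20 ± 0.12 (SE), Crem by -0.13 ± 0.10 and Jund by -0.16 ± 0.14. Fos, an immediate-early gene named after its values were seen, read 7.17, 7.17 and 7.20 on LSD arrays and 7.11, 7.07 and 7.13 on Saline arrays. The difference was 0.07 ± 0.074 without overlap. Of the 10 genes, 0 were lower and 1 higher without overlap, against 158 and 330 of 4736 over all genes. Other neuropeptide precursors, set beside the opioid ones for comparison, had 5 of 13 higher, 8 lower and a median of -0.03, against 1 of 4 higher and a median of -0.14 for the opioid precursors with 1 probe set per gene. Among the 13 other precursors 1 was lower and 0 higher without overlap, against the same 158 and 330 of 4736 genes. That 1 gene was Tac1, at 5.57, 5.55 and 5.61 on LSD arrays and 5.62, 6.11 and 5.97 on Saline arrays. Trh differed by -0.27 and Adcyap1, the PACAP precursor, by 0.16. The precursors that also stand in the interneuron list were named after their values were seen. Vip differed by -0.10, Cck by 0.04, Sst by -0.03, Npy by 0.03 and Crh by -0.01.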

How the data were processed

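Deposited values were log2 values, which the authors obtained from raw Affymetrix rat genome array data by RMA in the affy package (background correction, quantile normalization, summary per probe set). Its version is not given in the sources used here. Quantile normalization hides a change shared by most transcripts. The table held 8799 probe sets, of which 59 controls were left out and 8740 tested. Genes were named from the platform annotation (1 symbol for 7006, several for 308, none for 1426). LSD was compared with Saline by limma 3.58.1 in R 4.3.3 over all tested probe sets, without covariates, with Benjamini-Hochberg adjustment at 0.05. Errors and 95% intervals are those of this fit. Lists were described at 1 probe set per gene (highest mean). The fit was tested on simulated data. Arrays have no read depth, and their number limits the precision. The authors' chronic LSD data were not used here.

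The opioid genes and the lists were chosen with earlier results of these data known. The text names all opioid probe sets, the 3 genes of lowest p per list, and the 5 genes closest to Penk. Outside this rule Adora2a, Drd2, Fos, Vip, Cck, Sst, Npy and Crh were named after their values were seen. Gene lists overlap (Tac1, Rgs9, Trh, Cartpt, Adcy5, Gng7 and the interneuron peptides stand in 2). Alternatives were 3 scalings, leaving out the dimmer probe sets, weighting arrays, a robust prior with an intensity trend, an exact rank test, a block for replicate number, other choices of probe set per gene, and leaving out each array.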

Additional observations from a re-analysis of the deposited data

How the results depend on the processing

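The count of 6 called probe sets became 16 above the median signal, 20 with an intensity trend and robust prior and 42 with array weights, and 0 with the replicate number as a block or with the exact rank test. Leaving out 1 array gave 0 to 3. The other scalings gave 5 or 6. Opioid probe sets called were 0 under all of these except array weights, which called 1 (Penk), and 0 without any 1 array. With 1 probe set per gene, 0 opioid genes and 0 genes of the related lists were called without any 1 array, and taking the most variable probe set or the mean of the probe sets also called 0 opioid genes. The replicate numbers did not pair the arrays. Deviations from the group means correlated at -0.0175, -0.232 and 0.175 for the same number, and only LSD 3 correlated best with its own number. The block changed no other call.

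Penk stayed between -0.54 and -0.42 without any 1 array. Signs turned for Oprk1 E08874cds_s_at with array weights (-0.0543) and for Oprl1 with array weights (0.0223) and by group medians (0.0318). Without 1 array the ranges were -0.485 to 0.0167 for Oprd1, -0.0033 to 0.134 for that Oprk1 probe set, -0.130 to 0.0462 for Oprl1, and for Oprm1 -0.0206 to 0.166 (D16349_at), -0.117 to 0.0299 (S77863_s_at), -0.109 to 0.0231 (S79903mRNA_at) and -0.145 to 0.0019 (S79903mRNA_g_at). The difference in 3′ minus 5′ signal between LSD and Saline was -0.118 to -0.0755 for beta-actin and -0.0761 to 0.0144 for Gapdh. The causes were not tested. The count of 12 opioid estimates below 0, an alternative chosen after seeing the data, was 8 to 13 without any 1 array.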
